A study of Mus musculus with 4 samples.

Results

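The 613 sites described here are places where an accessible region at the end of a gene was at least 1.5 times as wide in Znhit1 knockout cells as in control cells. The sites were selected on these measured widths. The assay was ATAC-seq on mouse testis, with nuclei of pachytene spermatocytes exposed to the transposase Tn5, which inserts sequencing adapters where DNA is open. Pachytene is the stage of the first meiotic prophase at which paired chromosomes are held together along their length. The study names 4 libraries with the title tag P35: 2 of genotype Znhit1_KO and 2 of genotype CTRL, with more than 30000000 reads each. The labels name neither the strain nor the way in which Znhit1 was deleted. They do not say whether the controls carry a Cre transgene or a floxed allele. Over the whole data, 1 peak list per genotype was analysed. Each gives positions of peaks, with no measure of their height. As each genotype has a single list, no value below has a replicate error and no p-value can be given. How many reads lie behind a list is unknown. Shares are followed by their Wilson 95% interval, which covers only counting error.

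The sites were found from the lists alone. On chromosomes 1 to 19 the knockout list held 20845 separate intervals and the control list 15241. In 6216 cases 1 knockout interval overlapped 1 control interval, by at least 1 bp, and neither overlapped any other. Of these pairs, 3888 had a knockout peak within 1 kb of an end of exactly 1 RefSeq protein-coding gene (GRCm38.p6, the assembly of mm10), 993 lay at the ends of 2 or more genes and 1335 at none. The 613 wider sites were the 15.8% of the 3888 pairs (14.7 to 16.9) in which the knockout width divided by the control width was at least 1.5. They lay at 611 genes, since R3hdm2 and Slc30a4 each had 2. Because they were chosen by the width ratio, the widths of the sites are a description and not a test. The comparison sets from the same 3888 pairs were 1885 stable sites, in which neither peak was more than 25% wider than the other, and 423 narrower sites, in which the control peak was at least 1.5 times as wide as the knockout peak. The remaining 967 pairs lay between these classes.

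ZNHIT1 is a subunit of the SRCAP complex, a chromatin remodeller that exchanges the histone H2A of a nucleosome for the variant H2A.Z. At active gene starts H2A.Z is found in the nucleosomes that border the open stretch, including the first nucleosome inside the transcribed region. ATAC-seq cuts mostly between nucleosomes, so a peak at a gene start marks the open stretch and the accessible DNA around it. Its width also depends on the number of reads and on the peak caller. A peak list shows where a caller drew the edges of a peak, not how open the site was.

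The promoter windows below show what a moved edge meant at 5 of the sites with the largest difference or ratio. Each is the RefSeq window from 250 bp before to 50 bp after the annotated start, on the strand of the gene (GRCm38.p6), written 5′ to 3′. All 300 bases of each lay inside the knockout peak. Capitals mark the bases that lay inside the knockout peak and outside the control peak, and lower case marks the bases inside both. They are shown because the 5 control peaks end at different places in the same kind of window: 48 bases into it in Psmd1, 85 bases in Msl2, and outside it in Mast2, while in Ccnj and Tfdp1 most of the window lay in both peaks. The windows of Lemd3, Zmynd11, Cdk13, Nr2c2 and Stxbp5, also among these sites, are not shown. All 300 bases of each of those lay inside both peaks, so no base there was particular to the knockout peak.
Psmd1, chr1:86064369-86064668, plus strand: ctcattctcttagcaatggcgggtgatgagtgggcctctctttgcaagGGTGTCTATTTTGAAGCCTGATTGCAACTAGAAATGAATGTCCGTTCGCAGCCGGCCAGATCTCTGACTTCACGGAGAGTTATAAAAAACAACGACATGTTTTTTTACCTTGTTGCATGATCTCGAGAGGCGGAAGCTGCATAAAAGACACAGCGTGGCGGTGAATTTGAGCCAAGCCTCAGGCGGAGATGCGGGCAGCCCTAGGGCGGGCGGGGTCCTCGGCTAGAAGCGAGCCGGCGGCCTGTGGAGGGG
Msl2, chr9:101073804-101074103, plus strand: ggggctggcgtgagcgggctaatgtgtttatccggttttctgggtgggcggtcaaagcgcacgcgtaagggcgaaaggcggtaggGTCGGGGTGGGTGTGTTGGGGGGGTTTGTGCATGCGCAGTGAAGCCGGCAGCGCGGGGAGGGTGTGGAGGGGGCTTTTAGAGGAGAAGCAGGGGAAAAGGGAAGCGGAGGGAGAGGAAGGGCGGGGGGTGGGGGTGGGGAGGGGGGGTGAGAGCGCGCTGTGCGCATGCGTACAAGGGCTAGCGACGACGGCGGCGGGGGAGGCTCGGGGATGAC
Mast2, chr4:116464132-116464431, minus strand: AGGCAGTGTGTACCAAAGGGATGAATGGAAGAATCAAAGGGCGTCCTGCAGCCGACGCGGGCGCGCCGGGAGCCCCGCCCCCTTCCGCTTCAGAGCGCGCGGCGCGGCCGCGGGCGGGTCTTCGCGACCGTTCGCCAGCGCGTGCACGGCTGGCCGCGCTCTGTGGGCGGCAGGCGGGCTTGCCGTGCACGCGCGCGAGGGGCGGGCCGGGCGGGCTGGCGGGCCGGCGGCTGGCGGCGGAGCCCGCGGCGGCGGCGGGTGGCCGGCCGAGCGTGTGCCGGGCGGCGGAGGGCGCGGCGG
Ccnj, chr19:40831029-40831328, plus strand: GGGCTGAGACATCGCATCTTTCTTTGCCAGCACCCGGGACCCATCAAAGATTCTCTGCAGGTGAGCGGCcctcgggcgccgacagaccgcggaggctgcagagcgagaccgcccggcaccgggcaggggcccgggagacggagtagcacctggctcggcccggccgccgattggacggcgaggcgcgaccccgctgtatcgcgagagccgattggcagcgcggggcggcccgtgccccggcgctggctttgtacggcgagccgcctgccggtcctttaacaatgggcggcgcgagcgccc
Tfdp1, chr8:13338501-13338800, plus strand: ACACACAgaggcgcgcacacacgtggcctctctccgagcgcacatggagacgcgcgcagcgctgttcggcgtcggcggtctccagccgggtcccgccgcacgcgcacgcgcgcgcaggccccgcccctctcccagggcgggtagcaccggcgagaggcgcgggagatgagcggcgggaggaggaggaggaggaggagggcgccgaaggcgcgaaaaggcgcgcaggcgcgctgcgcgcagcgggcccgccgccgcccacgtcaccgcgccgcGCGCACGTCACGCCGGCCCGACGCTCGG

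In Psmd1 252 of the 300 bases were in capitals, in Msl2 215, in Mast2 all 300, in Ccnj 69 and in Tfdp1 35. The Psmd1 and Msl2 control peaks therefore stopped upstream of the annotated start, and the knockout peaks ran across it. The Mast2 control peak lay wholly inside the gene, and the knockout peak reached back over the start.

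Across the 613 sites the knockout peak had a median width of 853 bp (quartiles 682 and 1032 bp, range 348 to 2252 bp). The control peak there was 440 bp wide at the median (quartiles 333 and 549 bp, range 162 to 1148 bp). At stable sites the knockout median was 761 bp and the control median 753 bp, and at narrower sites they were 420 and 788 bp. The wider sites in the knockout and the narrower sites in the control were thus somewhat wider in the middle of their range than stable sites, and their partners in the other list were much narrower. The median width difference at wider sites was 383 bp (quartiles 296 and 520 bp), and the median ratio was 1.85. A ratio of 2 or more was found at 218 sites, of 3 or more at 41 and of 4 or more at 10. A difference of at least 300 bp was found at 451 of the 613 wider sites and, in the opposite direction, at 290 of the 423 narrower sites.

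**Figure D1:**
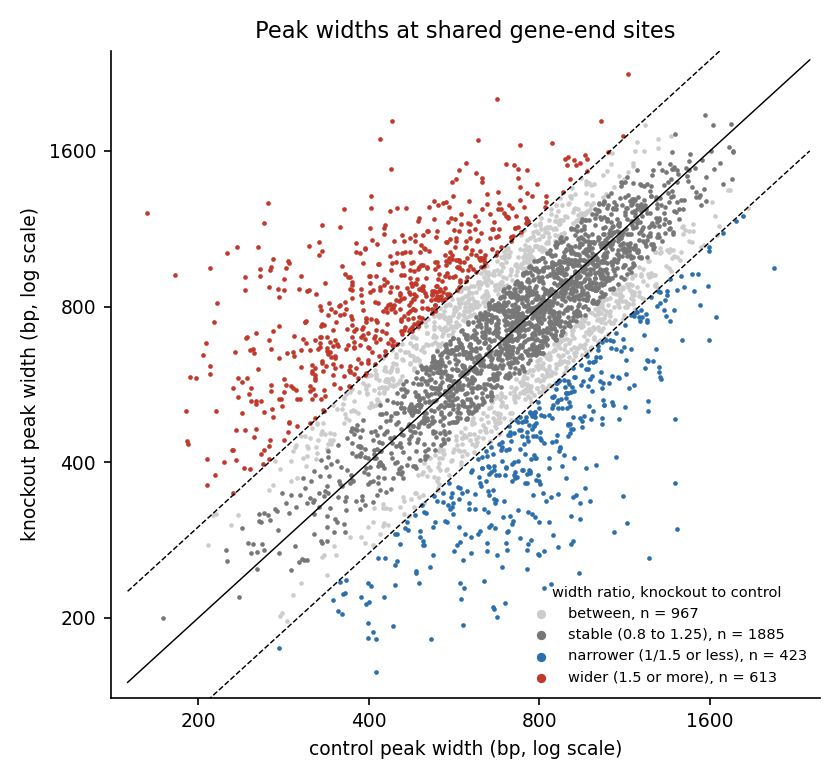
Knockout peak width against control peak width, both in bp on log scales, for the 3888 shared gene-end sites, 1 point per site. The dashed lines are ratios of 1.5 in either direction: 613 sites lie on or above the upper line (red), 423 on or below the lower one (blue) and 1885 stable sites along the solid line of equal width (dark grey).

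Sites of both kinds were present. Against the 613 wider sites (15.8%) stood 423 narrower ones (10.9%, 9.94 to 11.9), a ratio of 1.45 to 1. Over all 3888 pairs the median widths of the knockout and control peaks were 735 and 697 bp, with a median log2 width ratio of 0.034 (quartiles -0.28 and 0.38). When each width was divided by the median width of its own list at these pairs, 507 sites were wider and 518 narrower, so the balance turned to 0.979 to 1 and the median log2 ratio to -0.042. All 507 were among the 613. This scaling shifts all pairs by 1 constant and centres both lists, so a balance near 1 is built into it and it does not check the excess. It shows only that the direction of the balance depends on the scale chosen for the 2 lists. Pairs at no coding gene end held 16.3% wider and 15.5% narrower sites, and pairs at the ends of 2 or more genes 15.7% and 9.87%.

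Narrow pairs were more often in either class than wide pairs. With the 3888 pairs split into 5 groups of equal size by the geometric mean of both widths, 22.8% were wider in the group with the smallest mean width (186 to 505 bp). The next groups held 21.0%, 18.1% and 11.2%, and the group with the largest mean width (932 to 1776 bp) 5.78%. The narrower sites followed the same order, with 18.9%, 15.3%, 8.61%, 6.18% and 5.40%. The wider share stood above the narrower share in each group, by at most 9.51 percentage points, and their intervals overlapped in the groups of smallest and largest mean width. Among chromosomes the wider share ran from 7.53% of 146 pairs on chromosome 16 (4.26 to 13.0) to 21.4% of 131 on chromosome 14 (15.2 to 29.2). These 2 intervals do not overlap, but they are the extremes of 19 chromosomes.

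**Figure D2:**
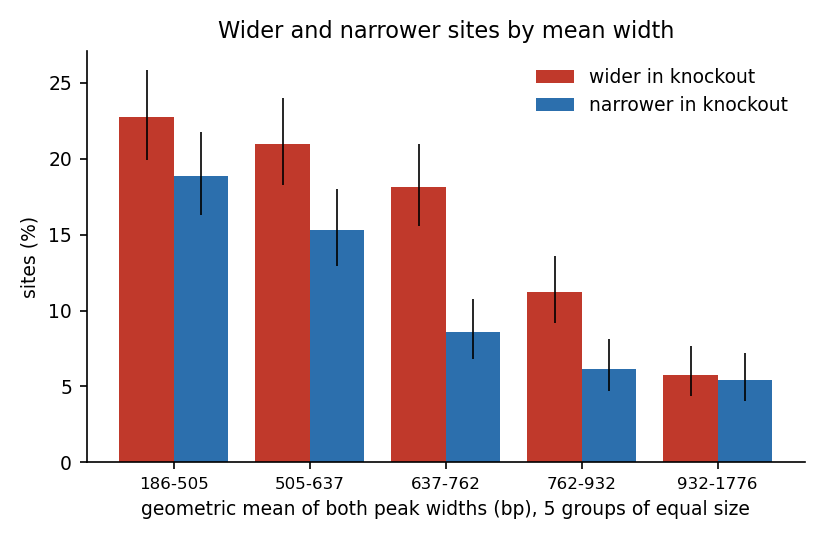
Share of shared gene-end sites (%) that were wider (red) or narrower (blue) in the knockout, in 5 groups of equal size of the 3888 sites by the geometric mean of both peak widths in bp, with Wilson 95% intervals as bars. Both shares fall from the narrowest group, 22.8% and 18.9%, to the widest, 5.78% and 5.40%.

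At 447 of 613 sites (72.9%, 69.3 to 76.3) the knockout peak contained the whole control peak, against 28.0% of all 3888 pairs. At narrower sites the control peak contained the whole knockout peak at 258 of 423 (61.0%, 56.3 to 65.5). A width ratio of at least 1.5 favours containment, so these shares are a description and follow in large part from the choice of sites. The lists repeat some intervals on several lines, which MACS2 can do once per summit, although the lists do not say that this is the reason. At 424 sites (69.2%) the knockout interval stood on more lines than the control interval, at 175 on the same number and at 14 on fewer. More lines in the knockout were found at 26.4% of all 3888 pairs, 18.4% of stable sites and 1.42% of narrower sites. At narrower sites 76.4% stood on fewer lines in the knockout. A control interval on a single line was found at 404 wider sites (65.9%), against 22.2% of stable sites and 29.8% of all pairs. The line counts are likewise a description, since the sites were chosen for a knockout interval that is wide beside the control interval. At 102 wider sites the interval stood on 1 line in both lists.

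Nearly all wider sites with a known strand lay at gene starts, as did stable and narrower ones. Strand was available for the genes of 505 of the 613 sites (82.4%), and 496 of these (98.2%, 96.6 to 99.1) lay within 1 kb of the start and not of the far end. The same share was 98.9% of 1550 stable sites and 98.9% of 355 narrower sites with strand. It therefore does not set the wider sites apart. The 6 exceptions at the far end only were Tex2, Mrpl58, Gm21188, Slc30a4, Zfp771 and Gdf15. The 3 short genes H1f2, H1f10 and Imp3 had a peak within 1 kb of both ends. Slc30a4, a zinc exporter, had wider sites at both of its ends: 952 bp against 631 bp at the start (chr2:122702140-122703091, knockout interval) and 984 bp against 576 bp at the far end (chr2:122681348-122682331).

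The downstream edge, the one on the gene body side, differed most. At the 496 gene starts the knockout peak reached a median of 328.5 bp upstream of the start and 505 bp downstream. The control peak reached 215 bp upstream and 201 bp downstream. Site by site, the knockout edge lay a median of 92.5 bp further out on the upstream side (quartiles 16.75 and 241.25 bp) and 270 bp further out on the downstream side (quartiles 155.75 and 401.25 bp). The downstream edge differed more than the upstream edge at 344 of 496 starts (69.4%, 65.2 to 73.3). Both edges lay further out in the knockout at 354 starts (71.4%), the downstream edge alone at 102 (20.6%) and the upstream edge alone at 40 (8.06%). Over all 3148 gene starts these shares were 26.8%, 26.2% and 27.2%, with neither edge further out at 19.8%. A knockout peak at least 1.5 times as wide must reach further out on some side. These outward differences and shares are therefore a description and follow in part from the choice of sites.

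The narrower sites gave nearly the mirror image. At 351 narrower gene starts the knockout edge lay a median of 73 bp further in on the upstream side and 273 bp further in on the downstream side. The downstream edge differed more at 239 of them (68.1%, 63.0 to 72.7). At 1533 stable starts, chosen for similar widths, the median differences were 1 bp upstream and 0 bp downstream. The larger difference there was on the downstream edge at 53.1% (50.6 to 55.6). That share was 64.3% (60.9 to 67.6) at the 768 starts between the classes and 60.1% (58.3 to 61.8) over all 3148 gene starts. A downstream edge that differed more was therefore found at wider and narrower starts in about equal shares and was not particular to the wider sites.

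**Figure D3:**
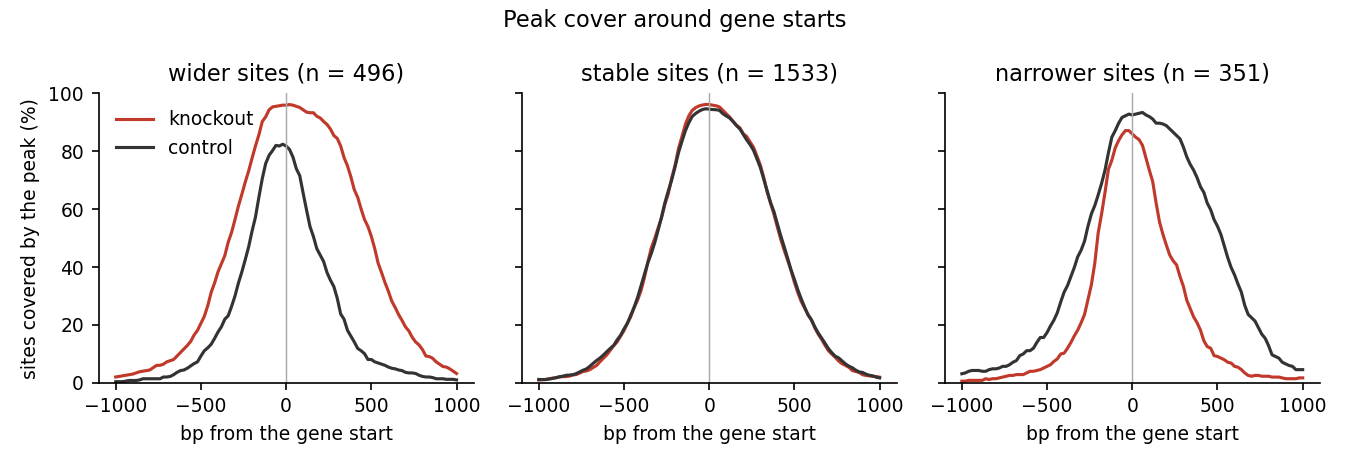
Share of gene starts (%) whose peak covers each position from 1000 bp before to 1000 bp after the start, gene body to the right, in the knockout (red) and the control (black), for 496 wider, 1533 stable and 351 narrower sites. At 400 bp downstream of a wider start 66.7% of knockout peaks and 14.1% of control peaks cover the position, at a narrower start 18.2% and 67.8%, and at a stable start 53.8% and 54.9%.

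The position of the peaks over the annotated start is also a description, since the wider sites were chosen for a control peak that is narrow beside the knockout peak, and a narrow peak covers fewer starts. The control peak covered the start at 406 of 496 wider starts (81.9%, 78.2 to 85.0) and at 94.6% of stable starts (93.3 to 95.6). At the other wider starts it ended upstream of the start in 35 cases and began downstream of it in 55. The knockout peak covered the start at 476 wider starts (96.0%) and at 96.2% of stable ones. At 72 wider starts (14.5%, 11.7 to 17.9) the knockout peak covered the start and the control peak did not, against 1.89% of stable starts, and at 2 wider starts the reverse held. In the narrower sites the knockout peak was the one that missed more often, covering 86.0% of starts against 92.6% for the control. The start used was the nearer of the promoter table's start and the annotated gene end. With the table's starts alone the control peak covered 77.2% of wider starts, and with gene ends alone 73.4%. Among pairs that overlapped by 50% of both peaks it covered 91.4% of wider starts, so the value depends on how pairs are made.

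The promoter windows of wider sites were slightly richer in CpG than those of stable or narrower sites. Of the 496 wider starts, 486 had a window. Their median GC content was 64.7% (quartiles 59.3% and 71.0%), against 63.3% at 1511 stable and 61.3% at 345 narrower starts. The median number of CpG dinucleotides per 300 bp window was 26 (quartiles 20 and 34), against 25 at stable starts (19 and 31), 23 at narrower starts (17 and 29) and 14 over the windows of autosomal coding genes. Over all 3099 gene-start pairs with a window the median was 24. The quartiles of the classes overlapped widely. The number of CpG over that expected from the C and G content of the window differed little. Its median was 0.858 at wider, 0.843 at stable and 0.828 at narrower starts. With the pairs split into 3 groups by mean peak width the wider sites had a median of 23, 28 and 31 CpG from the narrow to the wide group, the stable sites 21, 24 and 27, and the narrower sites 22, 23 and 27. The median gene length was 30.8 kb for wider, 28.6 kb for stable and 24.7 kb for narrower sites. The difference between the classes was not tested, because sites of 1 list pair are not replicates.

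Short motifs were looked for in the same windows, on both strands, as a description of letters only. A GC box (GGGCGG) stood in 78.8% of the 486 wider windows, 76.9% of stable, 72.2% of narrower and 35.7% of all 32851 windows in the table. A TATA box (TATAAA) stood in 3.29% of wider windows (2.04 to 5.28), 5.36% of stable and 13.6% of all windows. The NRF1 core (GCATGCGC) stood in 8.23% of wider windows, 10.3% of stable and 2.71% of all. A CCAAT box (CCAAT) stood in 41.4%, 44.5% and 37.4%. For ETS (CCGGAAG), E-box (CACGTG), CRE (TGACGTCA), YY1 (AAGATGGC) and MYB (AACNGNC) elements too, the interval of the wider windows overlapped that of the stable windows. The Msl2 window above holds the NRF1 core and the GC box, the Psmd1 window a TATA box, and the Ccnj window a CCAAT box.

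The sites with the largest width difference are described first. At Lemd3, which encodes an inner nuclear membrane protein that binds SMAD factors, the knockout peak was 1827 bp wide and the control peak 440 bp. The upstream edges lay 10 bp apart, and the downstream edge lay 1377 bp further into the gene in the knockout. At Msl2, a subunit of a histone acetyltransferase complex, the widths were 1684 and 419 bp. The Msl2 control peak ended 166 bp before the start and the knockout peak 1053 bp after it. At Cdk13, a kinase of the RNA polymerase II tail, the widths were 2252 and 1148 bp, and the knockout peak began 151 bp later on the upstream side and ended 1255 bp further downstream. It was the widest knockout peak of the set. At these 3 sites it was the downstream edge that differed most.

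At Zmynd11, a reader of methylated histone H3, the order was the opposite. Its knockout peak was 2017 bp wide and its control peak 672 bp, with 1120 bp of the difference upstream and 225 bp downstream. Nr2c2, a nuclear receptor gene, had widths of 1677 and 624 bp, with 726 bp upstream and 327 bp downstream. Stxbp5, a syntaxin-binding protein gene, had widths of 1474 and 438 bp, split into 608 and 428 bp. Mier3, a gene of the MIER corepressor family, had widths of 1311 and 404 bp, with 914 bp downstream and an upstream edge 7 bp further in. For Nsd1, a histone H3 methyltransferase gene with widths of 1513 and 593 bp, no strand was available. Next in knockout width after Cdk13 and Zmynd11 was the F-box gene Fbxo36, with 1828 bp against 1029 bp.

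Apart from Lemd3 and Msl2, the ratios of 4 or more came with control peaks under 300 bp. Psmd1, a subunit of the regulatory particle of the proteasome, had a knockout peak of 1211 bp and a control peak of 162 bp, a ratio of 7.48. Its control peak was the narrowest of all 613. Mast2, a microtubule-associated kinase gene, followed with 919 and 182 bp (5.05), and Tfdp1, the dimer partner of E2F factors, with 1271 and 265 bp (4.80). The widths were 948 and 210 bp at Rapgef1, an exchange factor for Rap, 1015 and 225 bp at Btbd3, and 1043 and 234 bp at Tsc22d1. They were 1160 and 261 bp at Sbf2, a myotubularin-family gene, and 1045 and 255 bp at Ccnj, a cyclin gene. Of these 8 genes, Mast2, Sbf2 and Tsc22d1 differed more on the upstream side, and Psmd1, Tfdp1, Rapgef1, Btbd3 and Ccnj more on the downstream side. All these control peaks were narrower than the lower quartile of the wider sites, 333 bp.

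**Figure D4:**
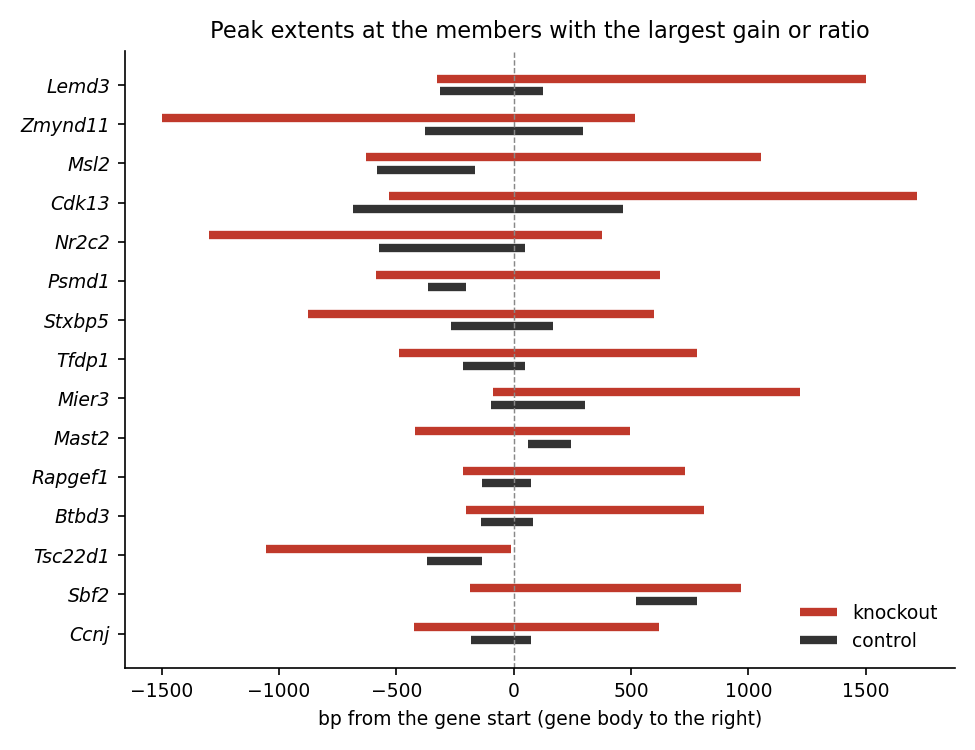
Extent of the knockout peak (red) and the control peak (black) in bp around the gene start, gene body to the right, for the 15 named genes with a known strand that had the largest width difference or ratio. At Lemd3, Msl2, Cdk13 and Mier3 the right-hand edge differs far more than the left-hand one, and at Zmynd11, Nr2c2 and Tsc22d1 the left-hand edge differs more.

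The threshold of 1.5 falls within a continuous range of ratios. Just inside it lay Stmn1 (1071 and 714 bp), Tle1 (786 and 524 bp), Atrn (590 and 393 bp) and Dnajc11 (1116 and 743 bp). Just outside it lay Rabgap1l (1124 and 750 bp), Tmed4 (635 and 424 bp), Poldip3 (1420 and 949 bp) and Zfp384 (658 and 440 bp).

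Znhit1 itself was not among the sites. Its knockout peak of 692 bp and its control peak of 633 bp lay at the ends of 2 coding genes, so it was left out of the 3888 pairs. A peak at the gene end does not check the genotype. The list of SRCAP complex and H2A.Z genes also held Ep400, Epc1, Epc2, Ing3, Morf4l1 and Trrap, genes of the TIP60 complex. Its counts are therefore not of SRCAP subunits alone. The list had 15 pairs, of which 1 was wider (6.67%, 1.19 to 29.8) and none narrower, beside 15.8% wider over all gene-end pairs. Its median log2 ratio was 0.088, against 0.034 over all pairs. The wider one was at H2az1, which encodes an H2A.Z protein, with a knockout peak of 993 bp and a control peak of 554 bp (chr3:137863940-137864932). The H2az1 knockout peak extended 373 bp further upstream and 66 bp further downstream. H2az2, the other H2A.Z gene, had 993 and 761 bp, a ratio under 1.5, and the ATPase gene Srcap had 1382 and 1239 bp.

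Genes of meiosis gave a small number of wider sites. None of the 8 pairs at chromosome axis or synaptonemal complex genes was wider or narrower: Sycp1 had 909 and 1028 bp, Sycp2 1077 and 1079 bp, Sycp3 836 and 753 bp and Hormad1 814 and 582 bp. Of 13 pairs at recombination genes 3 were wider (23.1%, 8.18 to 50.3) and none narrower. Rnf212, a crossover factor, had 662 and 250 bp. Meiob, a partner of SPATA22 on single-stranded DNA, had 945 and 610 bp. Ankrd31, which is needed for break formation in the pseudoautosomal region, had 616 and 318 bp, and its control peak lay downstream of the start. Of 11 pairs at genes of DNA damage signalling and sex chromosome inactivation 2 were wider and 1 narrower. The wider ones were Rnf8, a ubiquitin ligase of the damage response, with 1133 and 402 bp, and Topbp1, an activator of ATR, with 664 and 338 bp. The narrower one was Mdc1, which binds phosphorylated H2A.X, with 579 and 982 bp. Each of these intervals includes the 15.8% of all gene-end pairs.

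Among 25 pairs at germline transcription regulators, 4 were wider (16%, 6.40 to 34.7) and 2 narrower. Tcfl5, a factor of the pachytene programme, had 1421 and 633 bp, with the knockout edge 956 bp further upstream. Atf1 had 1190 and 703 bp, Yy1 1130 and 663 bp and Sp3 1010 and 606 bp. The regulators Mybl1 (1144 and 1079 bp) and Sox30 (1155 and 1325 bp) were in neither class. Of 13 pairs at piRNA pathway and germ granule genes 3 were wider (23.1%, 8.18 to 50.3) and none narrower. Tdrkh, a Tudor protein on mitochondria, had 1238 and 675 bp. Piwil1, the PIWI protein of pachytene piRNAs, had 1095 and 719 bp. Kif17, a kinesin, had 839 and 528 bp. The median log2 ratio of this list was 0.26, against 0.034 over all pairs. At the meiotic divisions 2 of 21 pairs were wider, Anapc4, a subunit of the anaphase-promoting complex (1020 and 473 bp), and the kinase gene Cdk1 (1089 and 670 bp), and 3 were narrower, Ccnb1, Ccnb2 and Cdc25c. The widths were 385 and 769 bp at the B-type cyclin gene Ccnb1 and 295 and 492 bp at Ccnb2, another B-type cyclin gene. Of 9 pairs at genes of spermiogenesis and the flagellum 1 was wider, Ccdc39 (529 and 278 bp), and 2 were narrower. For each list in this paragraph the interval of the wider share includes the 15.8% of all gene-end pairs.

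The lists of general cell functions ran from 0 of 12 housekeeping pairs to 8 of 39 pairs of the ubiquitin system. Histone modifiers and remodellers had 5 wider and 7 narrower of 36 pairs. Beside Nsd1, the wider ones were the remodeller Chd1 (1416 and 732 bp), the demethylase gene Kdm3b (1018 and 493 bp), the SWI/SNF subunit gene Smarcb1 (817 and 475 bp) and Smarcad1 (781 and 444 bp). The narrower ones included Ezh2, the Polycomb methyltransferase (762 and 1643 bp), and Smarca5 (450 and 788 bp). The ubiquitin system had 8 wider and 4 narrower of 39 pairs (20.5% wider, 10.8 to 35.5), led by Ube2e1 (1150 and 427 bp), Usp1 (913 and 242 bp), Wwp1 (1007 and 670 bp) and Wwp2 (557 and 230 bp). RNA processing had 3 wider and 4 narrower of 36. The wider ones were Cpsf6 of the 3′ end cleavage machinery (1034 and 502 bp) and the helicase genes Ddx39b (1008 and 546 bp) and Dhx9 (1136 and 724 bp). Protein synthesis and chaperones, a list that also held the proteasome gene Psmd1, had 5 wider and 3 narrower of 34. Beside Psmd1 these were the cap-binding Eif4e (1240 and 448 bp), its scaffold Eif4g1 (866 and 276 bp), Rpl5 (816 and 410 bp) and Dnaja2 (912 and 597 bp). Of 12 housekeeping pairs none was wider and 1 was narrower. For each of the 13 lists the interval of the wider share included the 15.8% of all gene-end pairs, so no list stood apart at this size.

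**Figure D5:**
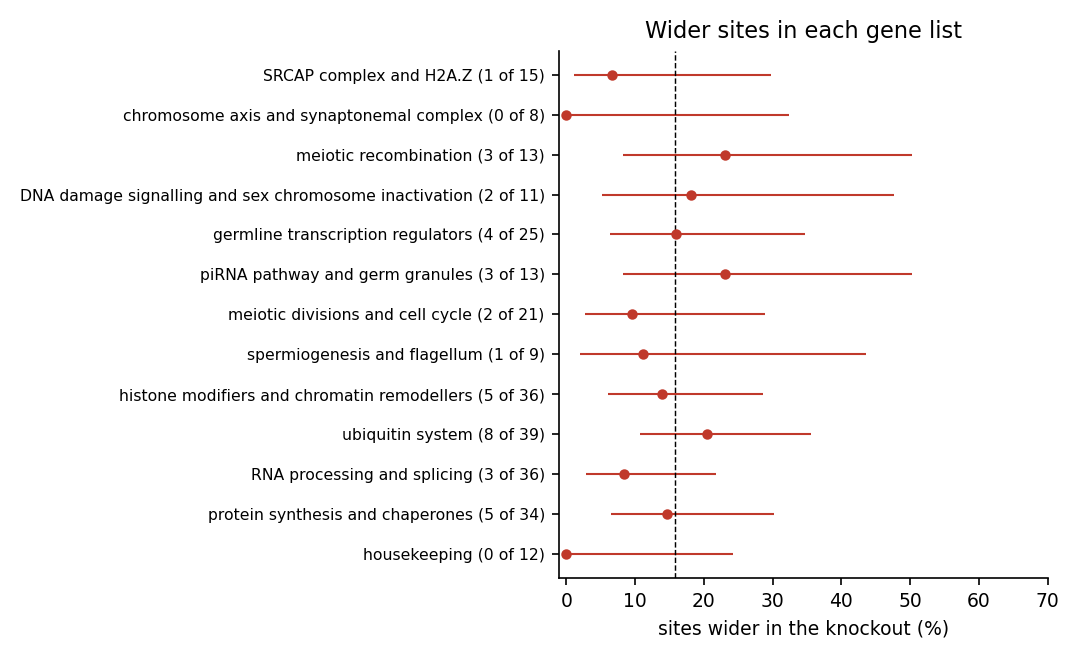
Share of shared gene-end sites that were wider in the knockout (%), for 13 gene lists, as points with Wilson 95% intervals, with the number of wider sites and of pairs beside each name. The dashed line is the 15.8% of all 3888 pairs, which lies inside the interval of each list.

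Some gene families held several wider sites. These families were chosen after their values were seen, so their counts are a description and support nothing. They stand beside the 15.8% of all gene-end pairs. Of 17 pairs at genes of proteasome subunits and activators 6 were wider (35.3%, 17.3 to 58.7) and 3 narrower. The wider ones beside Psmd1 were Psma5 (774 and 361 bp), Psmb7 (860 and 497 bp), Psmc6 (1037 and 592 bp), Psmd3 (1160 and 599 bp) and the activator gene Psme3 (960 and 639 bp). The narrower ones were Psmd2, Psmd5 and Psmd7. Of 16 pairs at Mediator genes 5 were wider (31.2%, 14.2 to 55.6) and 3 narrower. The wider ones included Cdk8 (1120 and 600 bp) and Ccnc (718 and 456 bp). Of 6 pairs at genes of the COPII coat of secretory vesicles 4 were wider (66.7%, 30.0 to 90.3), namely Sec24b (832 and 373 bp), Sec31a (790 and 365 bp), Sec23b (792 and 453 bp) and Sec24c (857 and 531 bp). Genes grouped by symbol as cyclin-dependent kinase inhibitors had 5 pairs, of which 4 were wider (80%, 37.6 to 96.4). They were Cdkn2b (918 and 304 bp), Cdkn2c (958 and 529 bp), Cdkn3 (852 and 540 bp) and Cdkn1c (911 and 554 bp). Cdkn3 encodes a phosphatase and entered the group by its symbol alone.

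Other families, also chosen after their values were seen, are given as a description. They stand beside the 15.8% wider and 10.9% narrower of all gene-end pairs. Cytosolic ribosomal protein genes had 3 wider (6.25%, 2.15 to 16.8) and 7 narrower of 48 pairs. Genes of respiratory complex I had 1 wider (6.67%, 1.19 to 29.8) and 5 narrower of 15. Both intervals include the 15.8%. The Zfp zinc finger genes had 15 wider and 8 narrower of 86 (17.4%, 10.9 to 26.8). Smurf1, a NEDD4-family ubiquitin ligase gene, had a wider and a narrower site side by side. The wider one (chr5:144964832-144965357) had widths of 526 and 248 bp, and the narrower one (chr5:144965754-144966099) had 346 and 930 bp.

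Neighbouring features were counted in the same way for the 3 classes. An end of a long non-coding RNA gene lay within 1 kb of 13.1% of wider, 16.1% of stable and 11.6% of narrower sites. A peak found in the knockout list alone lay within 5 kb of 35 wider sites (5.71%), against 5.09% of stable and 7.33% of narrower sites. A peak found in the control list alone lay within 5 kb of 32 wider sites (5.22%, 3.72 to 7.28), against 3.82% of stable sites (3.04 to 4.78) and 4.96% of narrower sites.

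The markers of the labelled cell type were checked by which had a gene-end peak, since the lists give no level. Of 13 pachytene spermatocyte markers 9 had one in both, including Ldhc, Mybl1 and Sycp1, and Piwil1 was the only one among the wider sites. Of 11 spermatogonial markers 1 had a peak in both lists, of 8 round spermatid markers 1, and of the 10 Sertoli, 6 Leydig and 7 peritubular, endothelial and immune markers none. Peaks in the knockout list alone stood at 2 pachytene, 3 spermatogonial and 2 Sertoli markers and at 1 of the latter 7 markers. Peaks in the control list alone stood at 2 spermatogonial markers and at 0 pachytene ones. No marker of the cell types other than pachytene spermatocytes was among the wider sites. A wider site needs a peak in both lists, which only 1 spermatogonial and 1 round spermatid marker had. The absence therefore says little about those cell types. Whether a difference in cell makeup between the lists bears on the widths was not tested.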

How the data were processed

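ATAC-seq peaks were compared between pachytene spermatocytes of Znhit1 knockout and control mice. The authors deposited, for 1 library of each genotype, a list of peak intervals in 3 columns (chromosome, start, end), with no header, score or count. No source used here says whether replicates were pooled, and the other 2 libraries were not analysed here. The submitters' processing notes name the build mm10 and MACS2 2.2.4, Picard 2.20.7, Bowtie2 2.3.4.3 and cutadapt 2.5, without roles or thresholds. A Tn5 offset or fragment extension, which would move peak edges, is not stated either.

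Repeated intervals were counted once. Overlaps, gene ends (RefSeq GRCm38.p6) and classes were computed with pandas 2.3.3, numpy 2.4.6 and scipy 1.17.1 in Python 3.11.15, figures with matplotlib 3.10.9. Positions are 1-based. Strand came only from the RefSeq promoter windows, and a class at a gene start requires it. The steps were tested on simulated data: all 1500 pairs made were placed at their gene, and all 600 made wider were called, with 0 others. bedtools 2.31.1 found the same 6905 overlaps.

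The sites, the 13 gene lists (592 of 596 entries matched) and the tests were chosen with earlier results of these data known. Arpc1a was listed with the SRCAP genes in error and is counted there, beside the TIP60 complex genes named above. Genes named are the 10 with the largest width difference, the 10 with the largest ratio, 4 on each side of the threshold, up to 4 wider sites per list and the 3 widest knockout peaks, with predicted names skipped. Other genes were chosen after their values were seen. Alternatives were the overlap, the window, the ratio, repeated lines, merging, scaling by list medians, a minimum control width, equal numbers of widest peaks and, chosen after seeing the data, how a pair or a start was placed.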

Additional observations from a re-analysis of the deposited data

How the results depend on the processing

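Dividing widths by their list median, which centres both lists and so sets the balance of wider to narrower sites near 1 by construction, turned it to 0.979 and the median log2 ratio to -0.042 (wider share 13.0%). With an overlap of 50% of both peaks there were 368 wider sites (10.7%), and with intervals listed at least 2 times 237 (11.2%, balance 1.94). Calling sites 25% wider gave 1117 sites (28.7%, balance 1.26) and a ratio of 2 gave 218 (5.61%, balance 1.69). With control peaks of at least 300 bp the share was 13.6%, the balance 1.21 and the median log2 ratio 0.014. Pairs on 1 line in both lists, an alternative chosen after seeing the data, held 102 wider sites (17.8%, median log2 ratio 0.085), and 100% of those with strand lay at a gene start. With a window of 3 kb that share was 90.9%. Otherwise the count stayed within 1.5 times 613. The wider share, the share at a gene start, the balance and the median log2 ratio otherwise stayed within their intervals. The control peak covered 72.3% of wider starts at a ratio of 2 and 91.4% with the 50% overlap, against 81.9% in the main setting. The median downstream difference of 270 bp ran from 205 bp (1 line in both lists) to 353 bp (ratio of 2). The upstream one of 92.5 bp ran from 70 to 162 bp in the same settings. The share of starts whose downstream edge differed more ran from 67.0% to 73.0% over all alternatives. Of the 50 named genes, those still paired kept their direction, but 47 had no value with 1 line in both lists, 32 with the 50% overlap, 30 with 2 lines, 13 with the 300 bp minimum, and 7 or fewer elsewhere. At a ratio of 2, 24 fell below the threshold, and after scaling 8. No paired analysis was possible because there was 1 peak list per genotype, and for the same reason no replicate could be left out. Unknown depth limits every width.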

Other observations

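Several genes with known roles in male germ cells lay among the wider sites outside the gene lists. They were picked after their values were seen. Kash5, which links telomeres to dynein in meiotic prophase, had a knockout peak of 584 bp and a control peak of 193 bp, the latter wholly downstream of the start. Ybx2, a germ cell RNA-binding protein gene, had 892 and 373 bp, and its control peak ended 17 bp before the start. Zpbp2, an acrosomal protein gene, had 1098 and 483 bp, and its control peak began 174 bp inside the gene. The helicase gene Ddx43 had 718 and 377 bp, the TFIID paralogue gene Taf7l2 847 and 472 bp, and Mns1, a gene needed for sperm flagella, 423 and 261 bp. The histone chaperone gene Asf1a had 1502 and 722 bp, and the CpG-binding protein gene Cxxc1 918 and 257 bp. Of 10 linker histone genes, a group also chosen after its values were seen, only 2 had a pair. Both of these, H1f2 (1061 and 380 bp) and H1f10 (894 and 430 bp), were wider (100%, 34.2 to 100). They stand beside the 15.8% of all gene-end pairs, and so small a count supports nothing about the family.

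The X chromosome, most of which is silenced at pachytene, was outside the rule. It had 24 one-to-one gene-end pairs, of which 2 were wider by the same ratio and 7 narrower. The wider ones were Atp6ap2, a subunit gene of the vacuolar proton pump (753 and 349 bp), and Fmr1 (533 and 261 bp). The narrower ones included Ogt (207 and 360 bp), Rbmx (321 and 641 bp) and Taf7l (808 and 1300 bp). The pairs at Mid1 and Asmt, genes at the pseudoautosomal end of the X, are among the 24 and were in neither class. On the autosomes 613 of 3888 pairs were wider (15.8%) and 423 narrower (10.9%). The difference between X and autosomes was not tested.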
